A study of Drosophila melanogaster with 58 samples.

Results

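The comparison described here set gamma neurons of the Drosophila melanogaster mushroom body at 30 h after pupa formation, 5 libraries, against gamma neurons at 24 h, 5 libraries. The libraries were chosen by cell type and time point, and no measured value entered the choice. They are 10 of the 58 libraries of the series. The series profiled alpha-beta and gamma neurons at 18, 21, 24, 27 and 30 h after pupa formation and in adults. The adults were 3 to 5 days old. The aim was to follow gene expression while alpha-beta axons first grow out and gamma axons regrow. All flies were reared at 25 °C and both sexes were taken at random. Each library came from 1000 GFP-positive cells sorted out of dissociated brains, with the RNA primed by oligo-dT and amplified by Smart-seq2. No genotype or driver line is named in the labels used here, so the line that marked the cells is not described, and both groups share whatever it carries. Nothing says whether the 5 libraries of a group came from separate dissections, so every p-value rests on a spread between libraries that may be technical. In the fits of all 58 libraries this spread was estimated over all 12 groups, not over these 10 libraries alone.

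Gamma Kenyon cells are the first-born neurons of the mushroom body, the learning and memory centre of the fly brain. Early in metamorphosis they prune the larval branches of their axons, a step that needs the ecdysone receptor EcR, and they then regrow an adult axon branch. The regrowth is known to need the nuclear receptor UNF (gene symbol Hr51) and the growth-controlling kinase TOR. Ecdysone acts through the EcR and usp receptor pair, which switches on a cascade of transcription factors, among them Eip74EF, Eip75B, Eip78C, br, Hr3, Hr4 and Blimp-1.

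The libraries held 8184961 to 23937961 counts at 30 h and 5340159 to 20403366 at 24 h, and 6933 to 7948 genes at 30 h and 6391 to 8372 at 24 h had at least 1 count. Neither the total count (exact permutation test, two-sided, p = 0.651) nor the number of genes detected (p = 0.683) separated the groups. A gene with no count in a library could still stand at up to 0.119 to 0.338 counts per 1000000 counts (CPM, scaled to the library's TMM-normalised total) at 30 h, and 0.14 to 0.529 CPM at 24 h, which is the level of 3 counts. These limits cover counting error only. The labelled cell type was checked against its markers. The pan-neuronal gene elav averaged 650 CPM at 30 h and 573 CPM at 24 h. Of the genes listed as markers of gamma Kenyon cells, ab averaged 1031 and 728 CPM, Imp 340 and 324 CPM and EcR 119 and 107 CPM at 30 h and 24 h. In alpha-beta libraries EcR averaged 188 and 180 CPM, ab 776 and 724 CPM and Imp 259 and 260 CPM at the same stages, so the levels of these genes did not set the gamma libraries apart from alpha-beta ones. The sum of 8 neuroblast and ganglion mother cell genes ran from 1399 to 3217 CPM at 30 h (median 2222) and from 1492 to 2639 CPM at 24 h (median 2227), and most of it was pros, which neurons also express. Of the others, wor had no count in any of the 10 libraries, and dpn, ase, insc, mira, grh and nab reached at most 17.5 CPM at 30 h and 15.9 CPM at 24 h.

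A single 24 h library stood apart. In replicate 2 at 24 h the summed level of 6 fat body genes was 1353 CPM, with Fbp2 at 442 CPM, Fbp1 at 329 CPM and Lsp1beta at 257 CPM. The median of that sum was 0 over the 24 h libraries, and its highest value at 30 h was 6.13 CPM. The sum of 11 glia genes ran from 472 to 921 CPM at 30 h (median 878) and from 354 to 668 CPM at 24 h (median 533). Most of it was nrv2, which neurons also express, at 466 CPM at 30 h and 431 CPM at 24 h. The defining glial gene repo averaged 12.5 CPM at 30 h and 4.06 CPM at 24 h, and Gs2, a glial glutamine synthetase, 110 CPM and 30.7 CPM. What these other cells contributed to the values below was not tested. In such pooled cells, a smaller share of cells that express a gene and less of its RNA in each cell cannot be told apart.

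The nuclear receptor gene Hr4, the acetylcholine receptor gene nAChRbeta1, the potassium channel gene slo and the peroxidasin gene Pxn were higher in every 30 h library than in any 24 h library, by 1.94- to 5.04-fold in their means. None of them passed edgeR's test over all genes in the fit of all 58 libraries, while DESeq2 called all 4 and limma-voom called Hr4 and Pxn. Over all 10072 genes tested, edgeR's quasi-likelihood test with Benjamini-Hochberg adjustment called 0 genes (0%) between 30 h and 24 h, and the smallest adjusted p-value was 0.428. At an unadjusted p-value under 0.05 the count was 967 (9.6%), 478 higher (4.75%) and 489 lower (4.86%) at 30 h. Of these 967 genes, 896 had a median of 0 in at least 1 of the groups and 50 were well expressed, meaning an average of at least 5 on the log2 CPM scale over the 10 libraries (1.31% of the 3816 genes at that level). DESeq2 called 504 genes (5%), of which 484 had a group median of 0 and 14 were well expressed. The limma-voom test with sample weights called 40 (0.397%), and 3 of those were well expressed: Hr4, Pxn and tyn.

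A second description was used that does not depend on a model: whether every 30 h library lay above or below every 24 h library. This held for 83 genes (0.824%), 62 higher (0.616%) and 21 lower (0.208%) at 30 h. Among the 3816 well-expressed genes it held for 35 (0.917%), 26 higher (0.681%) and 9 lower (0.236%). With 5 libraries a group, spread unrelated to stage also separates some genes fully. Whether these counts exceed that number was not tested, so a lack of overlap alone is not evidence of a stage difference. At an unadjusted p-value under 0.05, 38 of the 3816 were higher (0.996%) and 12 lower (0.314%). Both counts held about 3 higher genes for each lower one among well-expressed genes, while the 967 genes over all levels were split almost evenly. Among the 30 h libraries, replicate 5 had the highest value for 17 of the 26 higher genes (65.4%), and for 1140 of all 3816 well-expressed genes (29.9%). Without that library the log2 fold change was 1.97 for Hr4, 1.42 for slo, 1.23 for Pxn and 0.90 for nAChRbeta1.

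**Figure D1:**
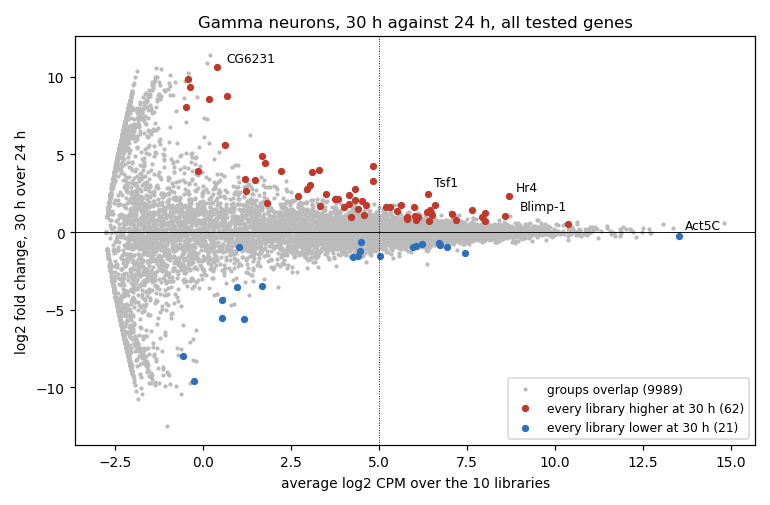
Log2 fold change of 30 h over 24 h gamma libraries (y axis) against average log2 CPM over the 10 libraries (x axis) for 10072 genes, with the dotted line at the level used for well-expressed genes. Red points mark the 62 genes above, and blue points the 21 genes below, in every 30 h library; left of the line fold changes spread widely, and right of it Hr4 and Tsf1 stand highest among the red points.

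Hr4, an ecdysone-induced nuclear receptor that takes part in the transcriptional cascade of metamorphosis, had 1054, 761, 796, 515 and 1872 CPM in the 5 libraries at 30 h. At 24 h it had 186, 146, 290, 188 and 181 CPM. The lowest 30 h library was above the highest 24 h library, and the group means differed 5.04-fold. The log2 fold change was 2.33 (SE 0.64, edgeR unadjusted p = 0.000618, adjusted p = 0.428), and it lay between 1.97 and 2.51 over the 10 fits that omitted a library, with the lowest value in the fit without replicate 5 at 30 h. Hr4 was the one gene that edgeR called when the fit held the pupal libraries alone (adjusted p = 0.00373, 1 of 9824 genes, 0.0102%) or the 10 libraries alone (adjusted p = 0.0385, 1 of 6913 genes, 0.0145%). DESeq2 (adjusted p = 0.0036) and limma-voom (adjusted p = 0.00667) also called it. The numbers ending the library names fall into 5 consecutive sets, each with 1 gamma 30 h and 1 gamma 24 h library. Within these sets the log2 ratio for Hr4 was 1.5 to 2.69. Groups without overlap give a ratio above 0 in any pairing, so only its size is informative.

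**Figure D2:**
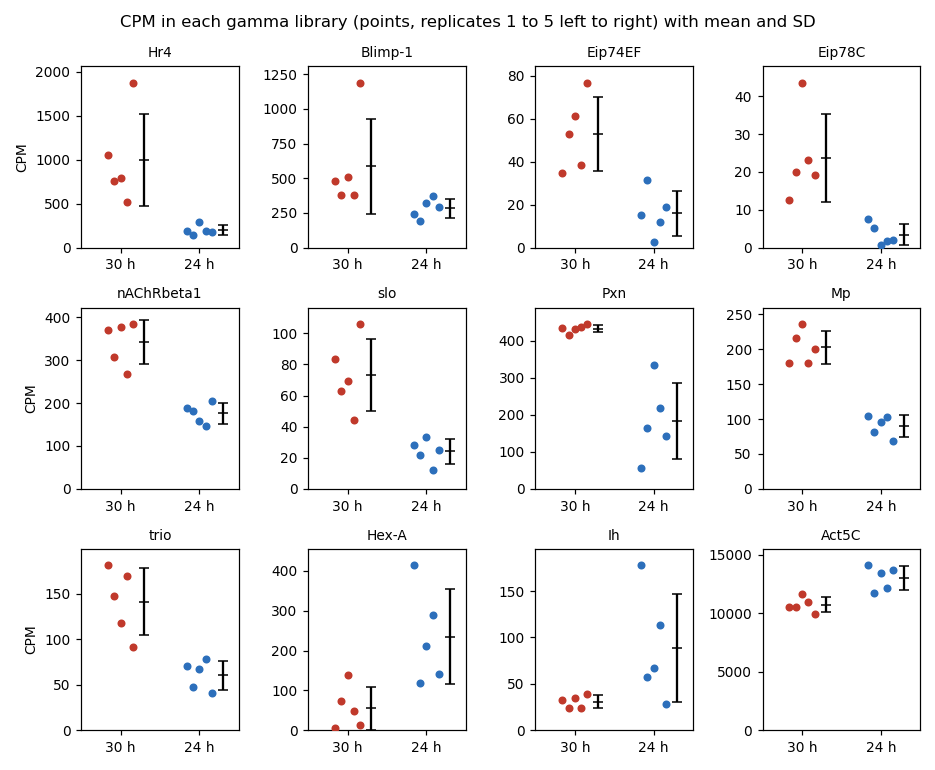
CPM of 12 genes in each gamma library, 30 h (red) left of 24 h (blue), with points in order of replicate number and a bar for the mean ± SD (n = 5 each). For Hr4, Blimp-1, Eip74EF, Eip78C, nAChRbeta1, slo, Pxn, Mp and trio every 30 h point is above every 24 h point, for Act5C every one is below, and for Hex-A and Ih the groups overlap.

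The list of ecdysone receptors and response genes had 22 tested members, and 4 of them were higher in every 30 h library than in any 24 h library, where 0.616% of all genes were. These were Hr4, Blimp-1, Eip74EF and Eip78C. None was lower in that way. At an unadjusted p-value under 0.05 the list had 2 higher members, Hr4 and Blimp-1, and 1 lower, Hr38, where 4.75% and 4.86% of all genes were. Without replicate 5 at 30 h, Blimp-1 had an unadjusted p-value of 0.133 in edgeR. Its median log2 fold change was 0.64, against 0 for all genes tested, and 0.12 over its 13 well-expressed members.

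Blimp-1, a transcriptional repressor that responds to ecdysone and helps to time pupal development, had 477, 379, 511, 377 and 1187 CPM at 30 h and 245, 193, 322, 369 and 296 CPM at 24 h. The lowest 30 h value was close above the highest 24 h value, and replicate 5 at 30 h stood far above the others. Its log2 fold change was 1.04 (SE 0.39, edgeR unadjusted p = 0.0106, adjusted p = 0.428), and 0.61 without that library. Eip74EF, an Ets-family factor of the early ecdysone response, had 34.7, 53.2, 61.2, 38.7 and 76.8 CPM at 30 h and 15.2, 31.3, 2.47, 12 and 19.1 CPM at 24 h. Eip78C, a nuclear receptor of the same response, had 12.6, 20.02, 43.6, 23.1 and 19.1 CPM at 30 h and 7.61, 5.06, 0.706, 1.86 and 2.10 CPM at 24 h. For both, the groups did not overlap, but the fitted log2 fold changes of 1.72 (SE 0.95) and 2.77 (SE 1.58) did not pass the unadjusted threshold. Both genes were named after their values were seen. Hr3, a nuclear receptor known to follow the hormone pulse, averaged 23.6 ± 16.7 CPM at 30 h and 5.31 ± 3.86 CPM at 24 h (SD, n = 5 each), and its groups overlapped.

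The receptor pair itself showed no separation. EcR averaged 119 ± 24.0 CPM at 30 h and 107 ± 65.8 CPM at 24 h, with a log2 fold change of 0.14 (SE 0.42), and usp averaged 128 ± 27.2 and 118 ± 35.3 CPM, with 0.12 (SE 0.58). Eip75B, a heme-binding nuclear receptor of the early response, averaged 629 ± 127 CPM at 30 h and 706 ± 149 CPM at 24 h (log2 fold change -0.17, SE 0.29). The br gene, which encodes the Broad zinc-finger factors of the larval-to-pupal transition, averaged 40.4 ± 39.9 and 73.3 ± 19.2 CPM (log2 fold change -0.86, SE 0.70). It was named after its values were seen. The coactivator gene tai averaged 86.5 ± 28.1 and 132 ± 40.5 CPM (-0.61, SE 0.31). Hr38, a nuclear receptor that neuronal activity also induces, had counts in 2 of 5 libraries at 30 h and 4 of 5 at 24 h, and its highest value was 171 CPM, in replicate 1 at 24 h.

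**Figure D3:**
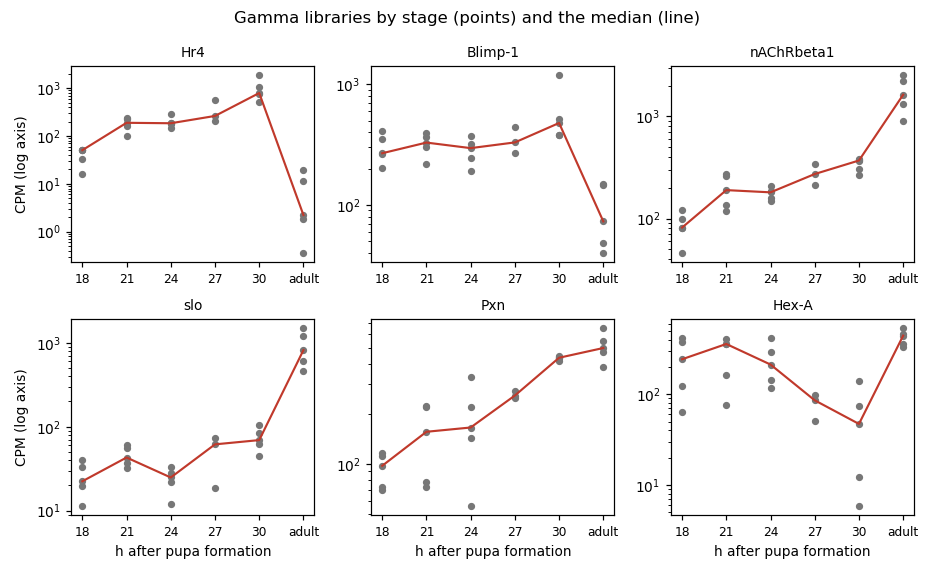
CPM on a log axis in every gamma library at 18, 21, 24, 27 and 30 h after pupa formation and in adults (points), with the median of each stage (line), for 6 genes. Hr4 has its highest median, 796 CPM, at 30 h and its lowest, 2.23 CPM, in adults; nAChRbeta1 and slo have their highest medians in adults, and Hex-A has its lowest at 30 h.

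Across the time points, Hr4 averaged 40.7 ± 16 CPM at 18 h, 183 ± 54.5 at 21 h, 198 ± 54.1 at 24 h, 345 ± 193 at 27 h (n = 3), 1000 ± 524 at 30 h and 7.07 ± 8.20 in adults (SD, n = 5 where not given). The 21 h and 24 h means differed by less than their SDs, and the 30 h libraries did not overlap with those of 18, 21 or 24 h. The earlier step, 24 h against 18 h, uses the same 24 h libraries and is given only beside the later one. The log2 fold change of Hr4 was 2.33 (SE 0.64) for 30 h over 24 h, beside 2.29 (SE 0.64) for 24 h over 18 h. Blimp-1 had 1.04 in the later step beside -0.07 in the earlier one, and Eip74EF had 1.72 beside 1.25. Over all genes, edgeR called 0 in the earlier step, with 962 (9.55%) at an unadjusted p-value under 0.05, while DESeq2 called 451 (4.48%) and limma-voom 4 (0.0397%).

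The known regrowth pathway showed no separation at this step. Of its 20 tested members (UNF, TOR and insulin signalling), 0 passed an unadjusted edgeR threshold of 0.05 in either direction, and 0 had groups without overlap. Over all genes the shares were 9.6% and 0.824%. Its 8 well-expressed members had 0 at that threshold, where 1.31% of well-expressed genes passed. These counts are therefore no sign of unusual stability. The list's median log2 fold change was 0.10. Hr51, which encodes UNF, had 817, 767, 611, 698 and 1166 CPM at 30 h and 1171, 844, 875, 575 and 750 CPM at 24 h. Its groups overlapped along most of their range, with a log2 fold change of -0.05 (SE 0.28). Tor had 28.7, 16.7, 26.6, 24.2 and 0 CPM at 30 h and 3.53, 55.2, 45.4, 17.8 and 43.8 CPM at 24 h, too scattered to resolve a difference (log2 fold change -0.78, SE 1.28). S6k, the kinase through which TOR promotes translation, averaged 176 ± 90.3 and 218 ± 81.2 CPM (-0.31, SE 0.35). The insulin receptor gene InR averaged 200 ± 62.1 and 155 ± 46.2 CPM (0.37, SE 0.55), and eIF4E1, the cap-binding translation factor, 755 ± 117 and 637 ± 160 CPM (0.25, SE 0.22). The approximate 95% interval of the log2 fold change was -0.61 to 0.50 for Hr51 and -3.29 to 1.72 for Tor, so the data bound the difference of Hr51 far more closely than that of Tor.

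Temporal identity genes set the order in which mushroom body neurons are born and mature. They were listed together with other Kenyon cell factors, such as ey, toy, dac and mub. In this joint list the groups overlapped in all 18 tested members. Over all genes, 0.824% had groups without overlap. The transcription factor gene chinmo averaged 194 ± 53.4 CPM at 30 h and 261 ± 37.5 CPM at 24 h (log2 fold change -0.43, SE 0.29). The RNA-binding protein genes Imp and Syp averaged 340 ± 129 and 324 ± 78.7 CPM (0.07, SE 0.35) and 378 ± 79.2 and 461 ± 125 CPM (-0.29, SE 0.30). Eip93F, which encodes the E93 factor of the pupal-to-adult programme, had 250, 177, 207, 79.6 and 168 CPM at 30 h and 263, 269, 262, 244 and 237 CPM at 24 h. All but 1 of the 30 h values of Eip93F were below every 24 h value (log2 fold change -0.53, SE 0.37). The gene tll, which encodes a neural progenitor factor, was detected in 1 library of 10, replicate 4 at 24 h, at 28.3 CPM.

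Neurotransmitter receptors and ion channels, which neurons need for mature signalling, were examined next. Of 38 tested neurotransmitter receptor genes, 2 were higher and 1 lower at 30 h at an unadjusted p-value under 0.05, and of 38 ion channel genes, 4 were higher and 1 lower, where 4.75% and 4.86% of all genes were. Their medians were 0.12 and 0.10, against 0 for all genes. Well-expressed receptor genes had 2 higher and 0 lower of 27, and well-expressed channel genes 1 and 1 of 23. Of all well-expressed genes 0.996% were higher and 0.314% lower. The nicotinic acetylcholine receptor subunit gene nAChRbeta1 had 370, 308, 378, 268 and 384 CPM at 30 h and 188, 181, 158, 147 and 206 CPM at 24 h. No libraries overlapped and the spread within each group was small. The log2 fold change was 0.96 (SE 0.28, edgeR unadjusted p = 0.00135, adjusted p = 0.428), and 0.90 to 1.03 over the fits that omitted a library. DESeq2 called it (adjusted p = 0.0218) and limma-voom did not (adjusted p = 0.47). Over time it averaged 85.7 CPM at 18 h, 195 CPM at 21 h (120 to 271), 176 CPM at 24 h, 275 CPM at 27 h, 342 CPM at 30 h and 1720 CPM in adults, so the 21 h mean was above that at 24 h and the 21 h range overlapped that at 30 h, and its earlier step, from the same 24 h libraries, had a log2 fold change of 1.04.

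The calcium-activated potassium channel gene slo had 83.6, 62.6, 69.3, 44.2 and 106 CPM at 30 h and 28.2, 21.9, 33.5, 12 and 24.9 CPM at 24 h. The groups did not overlap, and slo had the smallest unadjusted p-value of the well-expressed channel genes (log2 fold change 1.60, SE 0.43, edgeR unadjusted p = 0.000428, adjusted p = 0.428). DESeq2 called slo (adjusted p = 0.00439) and limma-voom did not (adjusted p = 0.545). At 21 h it averaged 45.6 CPM (32 to 61.3), which was above the 24 h mean and overlapped the 30 h range. Its adult mean was 919 CPM, and its earlier step, 24 h over 18 h, had a log2 fold change of -0.08. Ih, the hyperpolarisation-activated channel gene, went the other way in the fit. It had 32.4, 24.4, 34.6, 23.6 and 39.2 CPM at 30 h and 178, 57.4, 67.1, 114 and 28.4 CPM at 24 h. All but 1 of the 24 h libraries lay above every 30 h library (log2 fold change -1.53, SE 0.47, edgeR unadjusted p = 0.00194, adjusted p = 0.428; DESeq2 adjusted p = 0.0156). Rdl, a GABA receptor subunit gene, averaged 815 ± 373 CPM at 30 h and 544 ± 92.0 CPM at 24 h, with overlap (0.58, SE 0.28). Among 35 synaptic vesicle and active zone genes, 1 passed the unadjusted threshold of 0.05. Of all genes 9.6% did, and of well-expressed genes 1.31%. The 1 gene was Rbp, which encodes RIM-binding protein, and it averaged 106 ± 73.0 and 42.9 ± 21.0 CPM (1.30, SE 0.45), with overlap. The vesicle phosphoprotein gene Syn averaged 70.6 ± 25.0 and 105 ± 46.9 CPM (-0.57, SE 0.44).

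Pxn, which encodes the matrix enzyme peroxidasin that crosslinks collagen IV, had 435, 417, 432, 437 and 445 CPM at 30 h, the tightest group among the genes described here. At 24 h it had 55.6, 165, 335, 220 and 142 CPM. The log2 fold change was 1.24 (SE 0.33, edgeR unadjusted p = 0.000452, adjusted p = 0.428), and DESeq2 (adjusted p = 0.00321) and limma-voom (adjusted p = 0.000652) called it. Pxn is also a hemocyte gene. Of the other 5 hemocyte genes in the table, He and Hml averaged 0 and 0.0182 CPM at 30 h and 0 and 0.0566 CPM at 24 h. The matrix genes Col4a1, Ppn and vkg, which hemocytes also express, averaged 4.55, 2.15 and 0.153 CPM at 30 h and 2.69, 1.96 and 1.31 CPM at 24 h. Pxn averaged 510 CPM in adult gamma libraries. Within the sets of library numbers its log2 ratio was 0.41 to 2.94, above 0 in any pairing because the groups did not overlap.

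Mp, the collagen XV and XVIII gene of the fly, had 180, 216, 236, 180 and 201 CPM at 30 h and 104.3, 81.0, 96.0, 102 and 67.9 CPM at 24 h (log2 fold change 1.17, SE 0.38, edgeR unadjusted p = 0.00352, adjusted p = 0.428; DESeq2 adjusted p = 0.0419). Ccn, which encodes a secreted matrix-associated protein, had 111 to 175 CPM at 30 h and 7.997 to 102 CPM at 24 h (1.30, SE 0.62). The gene tyn, which encodes a zona pellucida domain protein, had 109, 127, 202, 303 and 230 CPM at 30 h and 24.5, 70.7, 78.0, 78.1 and 38.3 CPM at 24 h. The groups of all 3 genes were apart. The fitted log2 fold change of tyn was 1.75 (SE 0.64, edgeR unadjusted p = 0.0082), and DESeq2 (adjusted p = 0.0434) and limma-voom (adjusted p = 0.0456) called it. Mp and Ccn were named after their values were seen.

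Of 44 axon guidance and adhesion genes, 1 was higher and 1 lower at an unadjusted p-value under 0.05, where 4.75% and 4.86% of all genes were. Both were among the 30 well-expressed members, and of all well-expressed genes 0.996% were higher and 0.314% lower. In this list 0 genes had groups without overlap, where 0.824% of all genes had, and the median was -0.12. The higher one was Sdc, the heparan sulfate proteoglycan syndecan that assists Slit signalling, at 1916 ± 377 CPM at 30 h and 1350 ± 164 CPM at 24 h (log2 fold change 0.50, SE 0.21). The lower one was Fas2, the adhesion molecule that outlines mushroom body lobes, with 229, 269, 274, 331 and 331 CPM at 30 h and 487, 315, 380, 668 and 328 CPM at 24 h. The 30 h values reached up into the lower part of the 24 h range (-0.60, SE 0.30, unadjusted p = 0.0489). Among 21 pruning genes 1 was higher without overlap, where 0.616% of all genes were. This was myo, which encodes the TGF-beta ligand myoglianin. It had 8.20 to 22.9 CPM at 30 h and 0.401 to 4.62 CPM at 24 h (2.35, SE 1.37).

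The guanine nucleotide exchange factor gene trio, which is needed for axon extension and guidance and also marks Kenyon cells, had 181, 148, 118, 169 and 91.2 CPM at 30 h and 70.1, 47.3, 67.6, 77.9 and 40.4 CPM at 24 h. The groups were apart (1.22, SE 0.50, edgeR unadjusted p = 0.0169, adjusted p = 0.428), although the mean at 21 h was 111 CPM. GEFmeso, another exchange factor gene, had 19.4 to 52.2 CPM at 30 h, and at 24 h it had no count in 3 libraries and at most 5.65 CPM in the others. Act5C, the main cytoplasmic actin gene, was lower in every 30 h library, at 10718 ± 642 CPM against 13016 ± 1035 CPM at 24 h (log2 fold change -0.28, SE 0.15).

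Of 28 microtubule and motor genes, 0 passed the unadjusted threshold of 0.05, and their median was 0.10. Of all genes 9.6% passed it, and of well-expressed genes 1.31%. Stathmin (stai) averaged 1043 ± 204 CPM at 30 h and 786 ± 139 CPM at 24 h (0.41, SE 0.22), the MAP1B homologue futsch 339 ± 157 and 199 ± 49.7 CPM (0.77, SE 0.44), and the major beta-tubulin gene betaTub56D 4470 ± 1056 and 3592 ± 768 CPM (0.32, SE 0.19). Of the 28 genes 1 was higher without overlap, where 0.616% of all genes were. This was betaTub60D, a beta-tubulin of differentiating cells, at 74.1 to 104.3 CPM at 30 h and 0 to 60.9 CPM at 24 h. It was named after its values were seen, and at 24 h 2 of 5 libraries had no count.

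**Figure D4:**
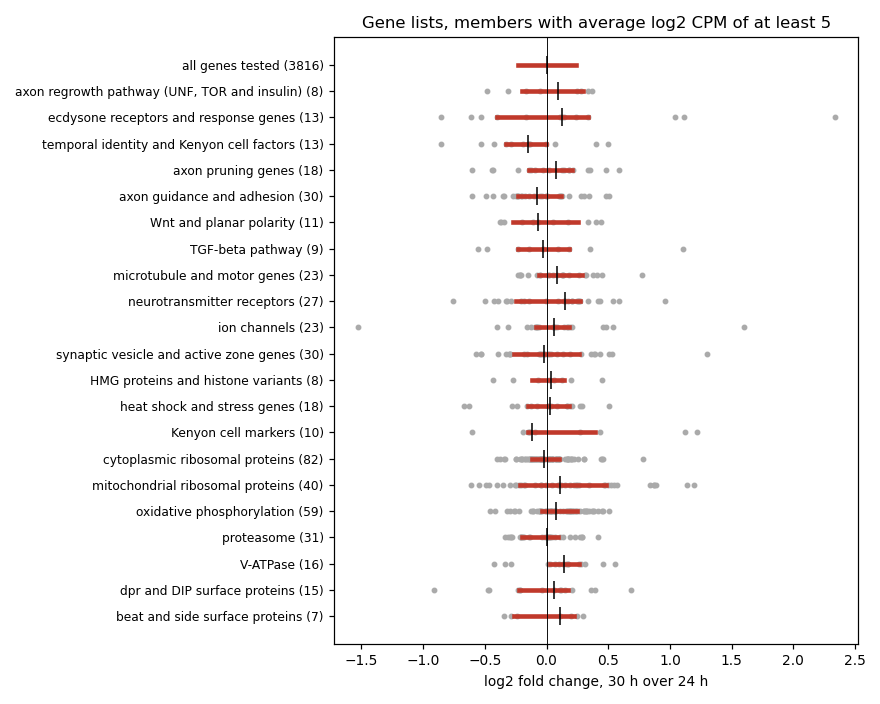
Log2 fold change of 30 h over 24 h (x axis) for the well-expressed members of 21 gene lists and for all 3816 well-expressed genes (top row), with list sizes in parentheses. Grey points are genes, the red bar spans the middle 50% and the black tick is the median; every median lies between -0.15 and 0.15, and Hr4, slo, Rbp, trio and nAChRbeta1 are single points to the right of their lists.

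The lists of growth and energy supply genes had median log2 fold changes between -0.03 and 0.14. Of 85 cytoplasmic ribosomal protein genes 0 passed the unadjusted threshold of 0.05, with a median log2 fold change of -0.03, and the summed level ran from 20030 to 44610 CPM at 30 h and from 26060 to 40910 CPM at 24 h. The 20 heat shock and stress genes also had 0, with a median of 0.06. Of 72 mitochondrial ribosomal protein genes 2 were higher and 0 lower, with mRpL14 at 24.3 to 94.0 CPM at 30 h and 8.22 to 16.9 CPM at 24 h. Oxidative phosphorylation had 2 higher and 2 lower of 69, the proteasome 2 and 3 of 37, and the V-ATPase 0 and 0 of 20. Over all genes 4.75% were higher and 4.86% lower at that threshold. Of well-expressed genes 1.31% passed it in either direction. Among the lists, 82 of the 85 cytoplasmic ribosomal protein genes and 18 of the 20 heat shock and stress genes were well expressed. The counts of 0 are therefore no sign of unusual stability. Hex-A, the main hexokinase gene and the first enzyme of glucose use, was named after its values were seen. It had 5.86, 74.3, 139, 47.1 and 12.3 CPM at 30 h and 414, 119, 212, 289 and 142 CPM at 24 h. Only replicate 3 at 30 h reached into the 24 h range (log2 fold change -2.08, SE 0.61, edgeR unadjusted p = 0.00125, adjusted p = 0.428; DESeq2 adjusted p = 0.00778). It averaged 243 CPM at 18 h, 273 at 21 h, 235 at 24 h, 78.7 at 27 h, 55.6 at 30 h and 425 in adults.

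The remaining genes with no overlap and the largest log2 fold changes were of mixed function. The iron carrier gene Tsf1 had 325, 335, 219, 190 and 796 CPM at 30 h and 49.9, 83.3, 0, 145 and 60.3 CPM at 24 h (2.46, SE 1.30, unadjusted p = 0.0645). Syb, a vesicle fusion protein, averaged 70.6 ± 33.5 and 22.8 ± 12.1 CPM, the mitochondrial kinase gene Pink1 85.4 ± 38.1 and 33.9 ± 17.6 CPM, and shop, which encodes a sulfite oxidase, 114.6 ± 41.1 and 34.6 ± 19.4 CPM. CG33543 averaged 161 ± 40.9 and 59.1 ± 33.5 CPM (1.45, SE 0.43, edgeR unadjusted p = 0.00126, adjusted p = 0.428; DESeq2 adjusted p = 0.0142). CG6231, named after its values were seen, had 27.8, 5.19, 16, 22.1 and 3.93 CPM at 30 h and no count in any 24 h library. Against the mean level of 3 counts per 24 h library it was at least 57.2-fold higher at 30 h, a bound for counting error only. The limma-voom test called it (adjusted p = 0.00057).

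The lower genes without overlap were fewer and their differences smaller. The pseudouridine synthase gene Pus1 averaged 21.4 ± 13.4 CPM at 30 h and 62.8 ± 17.7 CPM at 24 h, and the nuclear transport receptor gene Ranbp16 48.6 ± 21.5 and 92.9 ± 23.2 CPM. The endosomal protein gene mop averaged 81.5 ± 21.6 and 145 ± 17.7 CPM, the autophagy protease gene Atg4a 58.6 ± 16.9 and 101 ± 13.7 CPM, and the chromatin remodelling subunit gene Brd7-9 83.3 ± 19.1 and 136 ± 19.4 CPM. CG8036, CG11122 and lncRNA:CR44832 were the others, apart from Act5C. Their unadjusted p-values in edgeR ran from 0.0651 for CG8036 to 0.363 for Pus1.

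Some genes of dividing and undifferentiated cells had counts in most 24 h libraries and hardly any at 30 h. PCNA, the replication clamp, was above 0 in 1 library at 30 h, at 0.135 CPM, and had 25.1, 8.95, 21.2, 2.56 and 0 CPM at 24 h. At 30 h no library had a count of dpa, an MCM helicase subunit gene, or of tum, a cytokinesis gene. At 24 h, dpa was counted in 4 of 5 libraries and tum in 3 of 5, with means of 7.99 and 9.03 CPM. Measured against 3 counts per 30 h library, dpa was at least 36.3-fold and tum at least 40.99-fold lower at 30 h. Such bounds cover counting error only, not the spread between libraries. The cell cycle list was not uniform. Of its 34 members, 3 were higher and 6 lower at an unadjusted p-value under 0.05, where 4.75% and 4.86% of all genes were. Their summed level ran from 295 to 558 CPM at 30 h (median 490) and from 339 to 739 CPM at 24 h (median 480). Cdk1, named after its values were seen, had no count at 24 h and 7.40 and 9.75 CPM in 2 libraries at 30 h. By the same kind of bound it was at least 13.1-fold higher at 30 h. The Notch target genes E(spl)m8-HLH and E(spl)mgamma-HLH had no count in any 30 h library and were each counted in 3 of 5 libraries at 24 h, with means of 3.86 and 12.6 CPM. The Notch list as a whole had 1 higher and 4 lower of 19 tested members, against 4.75% and 4.86% of all genes, but a median log2 fold change of 0.46. Its summed level was 738 to 1273 CPM at 30 h (median 1064) and 659 to 1207 CPM at 24 h (median 814).

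Alpha-beta neurons at 30 h (5 libraries) and 24 h (6 libraries) share no library with the gamma groups, and served to ask whether the gamma differences were larger. The difference between the steps was tested as an interaction. It gave 0 called genes in edgeR (smallest adjusted p = 0.262), with 735 (7.3%) at an unadjusted p-value under 0.05, 456 called by DESeq2 (4.53%) and 4 by limma-voom (0.0397%). The alpha-beta step itself gave 0 called genes in edgeR, with 832 (8.26%) at an unadjusted p-value under 0.05, 352 called by DESeq2 (3.49%) and 1 by limma-voom (0.00993%). Hr4 had a log2 fold change of 2.33 in gamma neurons and of 1.59 in alpha-beta neurons, where it averaged 784 ± 401 CPM at 30 h and 261 ± 95 CPM at 24 h (edgeR interaction, unadjusted p = 0.382, adjusted p = 1). The gamma and alpha-beta values were 1.60 and 1.00 for slo, 1.04 and 0.62 for Blimp-1, 1.72 and 1.54 for Eip74EF, and 0.96 and 0.44 for nAChRbeta1, and none of their interactions had an unadjusted p-value under 0.05.

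Among the 49 well-expressed genes in the plot of both cell types, 4 had an interaction with an unadjusted p-value under 0.05 and 0 were called. These 4 were Hex-A, CG13023, tyn and CG33543. Over all genes 7.3% had such an interaction, a share that includes sparse genes. The share over well-expressed genes alone is not given here, so the 2 shares are not comparable. Genes among the 49 were named partly by their gamma step, which is also part of the interaction, so this count is no independent test. Hex-A had a log2 fold change of -2.08 in gamma neurons and of 0.10 in alpha-beta neurons, where it averaged 102 CPM at 30 h and 94.6 CPM at 24 h (edgeR interaction, unadjusted p = 0.01, adjusted p = 0.35). The log2 fold change of CG13023 was 1.44 in gamma and -4.06 in alpha-beta neurons (edgeR interaction, unadjusted p = 0.00861, adjusted p = 0.335), but the alpha-beta medians were 8.75 CPM at 30 h and 3.38 CPM at 24 h, and the 24 h mean rests mostly on 1 library of 6, at 698 CPM. For tyn the gamma and alpha-beta values were 1.75 and -0.18, and for CG33543 1.45 and 0.21.

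**Figure D5:**
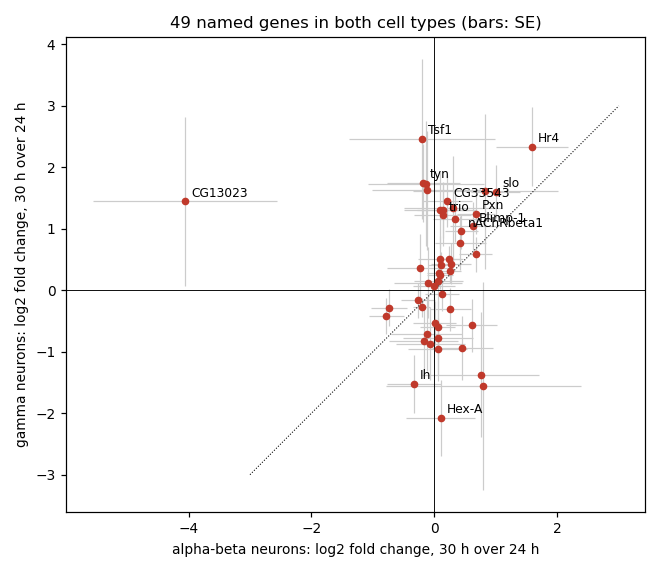
Log2 fold change of 30 h over 24 h in gamma neurons (y axis) against alpha-beta neurons (x axis) for 49 named, well-expressed genes, with SE bars and a dotted line of equal change. Hr4, slo and Blimp-1 are above 0 in both cell types, Hex-A is at -2.08 in gamma and 0.10 in alpha-beta neurons, and CG13023, at -4.06 in alpha-beta neurons, is far to the left, where 1 alpha-beta 24 h library of 6 holds most of its level.

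The gene models limit some of these values, since the strand used in counting is not given in the sources used here. Of the 76 genes tabulated for naming, 75 were found in the Ensembl BDGP6.54 annotation, and 26 of them share exon sequence with another gene. Hr4 shares some with PIG-K, Pxn with CG16986, trio with CG9205 and CG33543 with an antisense RNA, and reads of such pairs cannot be told apart where they overlap. No shared exon was found for nAChRbeta1, slo, Blimp-1, Eip74EF, Eip78C or Hex-A.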

How the data were processed

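RNA was measured in 58 libraries, 10 of which (5 gamma 30 h, 5 gamma 24 h) form the main comparison. The deposited table holds raw counts per gene for 12453 genes, made by the authors before deposit with STAR, per the submitters' processing notes; the aligner version, genome build, annotation and strand setting are not given in the sources used here. Libraries were amplified by PCR with no molecular identifiers named, so counts are not independent molecules. From the counts, edgeR 4.0.16 (R 4.3.3) kept 10072 genes (filterByExpr, minimum count 10, minimum total 15), normalised by TMM and fitted all 12 groups in 1 quasi-likelihood model, with Benjamini-Hochberg adjustment over all tested genes and a threshold of 0.05. Log2 fold changes are from that fit; its SE is the estimate divided by the square root of the test statistic. CPM use TMM-scaled totals.

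Named genes were those called; the 10 highest and 10 lowest log2 fold changes among well-expressed genes without overlap; up to 3 genes with the smallest p-value of each of 33 lists; and 15 fixed genes. Others were named after their values were seen, Eip74EF, Eip78C and br among them, and most are marked so where they appear. The members and lists were chosen with earlier results of these data known. Alternatives were DESeq2 1.42.0, limma 3.58.1 (voom with sample weights), other sample sets, filters, normalisations, blocks and fits omitting a library. The procedure was also run on simulated data, and the outcome is not given here. Chi-square tests over genes found no duplicated libraries in 20 same-group pairs. The regression on replicate number was kept as an alternative, since same-numbered libraries did not deviate together.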

Additional observations from a re-analysis of the deposited data

Results flagged for a closer look

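The 76 genes tabulated for naming, each at 30 h and at 24 h, gave 152 groups of 5 libraries. Some genes with levels in the text, such as br, tai and elav, were not among them. A test of the gap between the highest or lowest library and its nearest neighbour singled out 22 groups. Chance alone does so in about 1 of 20 groups, and genes with counts in 1 library always qualify.

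Among the less sparse genes, the isolated value at 30 h was 1190 CPM for Blimp-1 (next 511), 125 CPM for gig (next 26.8), 796 CPM for Tsf1 (next 335), 130 CPM for Syb (next 60.8), 763 CPM for CG13023 (next 377), 94 CPM for mRpL14 (next 38.3) and 52.2 CPM for GEFmeso (next 23.7). At 24 h it was 290 CPM for Hr4 (next 188), 225 CPM for EcR (next 83.6), 16.9 CPM for mRpL14 (next 9.96) and 5.65 CPM for GEFmeso (next 0.802). All 7 of these 30 h values were in replicate 5, and its Hr4 value, 1872 CPM, was also the highest.

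For sparse genes the isolated value at 30 h was 24.8 CPM for iav, 0.135 CPM for PCNA, 0.0677 CPM for E(spl)m6-BFM and 0.0396 CPM for Lsp1gamma, with no count in the other libraries of the stage. At 24 h it was 28.3 CPM for tll, 18.2 CPM for gcm, 5.87 CPM for 5-HT7 and 3.07 CPM for Mdr65, and in replicate 2 the fat body genes Lsp1beta, Lsp1gamma and Lsp1alpha stood at 257, 130 and 102 CPM.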

How the results depend on the processing

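The count of 0 called genes between 30 h and 24 h in gamma neurons became 504 with DESeq2, 40 with limma-voom, 1 with only the groups compared, 1 with only pupal libraries, and 1 with only the groups compared and the library-number set as a block, which was added after seeing the data (adjusted p = 0.0151 for Hr4). That 1 gene was Hr4 in each edgeR fit. Fits omitting a library gave 0 to 1, the 1 being CG2082 without replicate 2 at 24 h, the library with fat body genes (adjusted p = 0.0111). Size factors of the DESeq2 kind, no filter, a stricter filter, robust dispersion and either block in the fit of all libraries kept it at 0. DESeq2 and limma-voom called 352 and 1 in the alpha-beta step, 456 and 4 in the difference of steps, and 451 and 4 between 24 h and 18 h, where the pupal fit called 1 and omitting a library 0 to 1. The cause of the difference between the tools was not tested; 484 of the 504 DESeq2 genes had a median of 0 in a group.

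Replicate numbers did not pair the libraries: the deviations of same-numbered libraries correlated at -0.182 to 0.171 (mean -0.0154), and 1 of 5 correlated best with its own number. Libraries of the same library-number set correlated at -0.0245 to 0.268 (mean 0.137), and 3 of 5 correlated best with their own set. With the replicate block, 0 genes were called between 30 h and 24 h, with 546 at an unadjusted p-value under 0.05 in place of 967, and 0 in the other 3 comparisons.

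Of the log2 fold changes of the 76 genes tabulated for naming, 3 changed sign in other settings. These were usp with the replicate block (-0.00722), and gig (-1.53) and Imp (-0.0792) with limma-voom. Over the fits that omitted a library, signs also changed, or the value became 0, for usp (-0.0214 to 0.264), Hr51 (-0.23 to 0.0929), gig (-0.0621 to 1.93), Imp (-0.116 to 0.214), iav (0 to 9.44), gcm (-8.95 to 0), Lsp1gamma (-11.4 to 1.01) and Lsp1alpha (-7.92 to 1.27). None of the genes with groups that did not overlap changed sign, but the absence of overlap all but fixes this, so it is no check of them.

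Depth limits the sparse genes: 3 counts correspond to 0.119 to 0.529 CPM in these libraries, and intervals cover counting error only. The 5 libraries a group and their spread limit the others.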
